A study of Mus musculus with 8 samples.

Results

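DNA replication licensing and fork genes were examined in Myc-CaP prostate tumors of mice. The set held 49 genes, taken by gene name from the 38115 genes listed for each tumor, and all 49 were found and passed the filter on low counts. Their roles run from the MCM2-7 helicase, the origin recognition complex (ORC) and the licensing factors to the polymerases, the sliding clamp, the nucleotide enzymes and chromatin assembly factor 1. Myc-CaP is a mouse prostate cancer cell line from a Hi-Myc mouse, in which human c-MYC is driven by a prostate-specific probasin promoter. An androgen sensitive (AS) or a castrate resistant (CR) Myc-CaP line was injected into the anterior prostate of male FVB mice that were intact or castrated beforehand, and RNA of the primary tumors and of metastases was sequenced. There were 2 tumors in each of the 4 groups, primary AS, primary CR, metastatic AS and metastatic CR, and the animals' ages were not stated. Each phenotype was 1 cell line, so phenotype, line and the androgen status of the host cannot be told apart. The labels do not say which tumors share an animal, so the p-values measure the spread between these samples. Every metastasis is labelled as matched, but the labels do not say to which primary tumor, and the tests treat the tumors as unrelated.

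In the G1 phase of the cell cycle, ORC together with Cdc6 and Cdt1 loads the ring of Mcm2 to Mcm7 onto replication origins, a step called licensing, and geminin (Gmnn) holds Cdt1 back once S phase has begun. Kinases then convert the loaded ring to an active helicase by adding Cdc45 and the GINS complex, and polymerases, the clamp Pcna and its loader, RPA, Fen1 and Lig1 copy the opened strands. Many of these genes are targets of the E2F transcription factors and are transcribed mostly in dividing cells, whereas several ORC subunits are kept through the cell cycle.

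The promoters of these genes were read from RefSeq, from 250 bases before to 50 bases after the start of the gene (build GRCm38.p6), to show which of them hold an E2F word. Windows were found for 41 of the 49 members. The words TTTGGCGC, TTTCCCGC, TTTGCCGC and TTTCGCGC, read on both strands, were present in 16 of these 41 members (39.0%), against 2.6% of the 27025 genes counted. The genes counted are those with a window, leaving out a chromosome that holds no member. The 16 were Mcm3, Mcm5, Mcm6, Mcm7, Mcm8, Orc1, Orc3, Cdc6, Cdt1, Gins3, Rfc3, Pola1, Pold1, Pold3, Pole2 and Lig1. The word CCAAT was present in 61.0% of the members and 41.1% of the genes counted, and CACGTG, the core of the E-box that Myc binds, in 22.0% and 8.09%. The words can share end bases with each other, and a match is a description of the letters, not a site shown to be bound. The 4 windows below belong to the members with the smallest p between metastatic and primary tumors among those that hold an E2F word, and that of Cdc45, which holds none, is shown because Cdc45 passed the test between phenotypes (chosen after its values were seen). Capitals mark the E2F words, on the strand of the gene.
Lig1, chr7:13278576-13278875, plus strand: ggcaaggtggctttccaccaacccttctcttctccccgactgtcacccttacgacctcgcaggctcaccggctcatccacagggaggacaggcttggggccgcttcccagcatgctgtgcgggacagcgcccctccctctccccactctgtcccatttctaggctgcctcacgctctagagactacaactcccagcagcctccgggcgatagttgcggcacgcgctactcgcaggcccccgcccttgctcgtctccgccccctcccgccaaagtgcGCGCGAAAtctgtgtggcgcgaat
Mcm3, chr1:20820263-20820562, minus strand: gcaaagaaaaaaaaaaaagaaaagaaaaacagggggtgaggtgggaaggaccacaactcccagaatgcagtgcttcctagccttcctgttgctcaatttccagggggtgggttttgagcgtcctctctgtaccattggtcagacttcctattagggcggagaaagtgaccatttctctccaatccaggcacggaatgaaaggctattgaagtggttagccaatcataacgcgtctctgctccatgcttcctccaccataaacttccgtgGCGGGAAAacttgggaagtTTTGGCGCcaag
Orc1, chr4:108579204-108579503, plus strand: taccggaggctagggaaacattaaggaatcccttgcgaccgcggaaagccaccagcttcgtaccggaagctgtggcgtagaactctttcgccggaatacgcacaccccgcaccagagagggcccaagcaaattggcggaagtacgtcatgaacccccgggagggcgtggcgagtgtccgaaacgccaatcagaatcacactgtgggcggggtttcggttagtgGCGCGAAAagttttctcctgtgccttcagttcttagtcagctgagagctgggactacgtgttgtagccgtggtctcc
Cdc6, chr11:98907901-98908200, plus strand: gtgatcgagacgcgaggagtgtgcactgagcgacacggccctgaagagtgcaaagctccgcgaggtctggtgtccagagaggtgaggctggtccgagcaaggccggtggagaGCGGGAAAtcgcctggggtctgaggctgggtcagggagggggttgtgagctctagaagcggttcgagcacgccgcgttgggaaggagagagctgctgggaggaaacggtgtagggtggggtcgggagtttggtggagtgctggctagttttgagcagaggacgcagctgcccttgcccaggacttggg
Cdc45, chr16:18811923-18812222, minus strand: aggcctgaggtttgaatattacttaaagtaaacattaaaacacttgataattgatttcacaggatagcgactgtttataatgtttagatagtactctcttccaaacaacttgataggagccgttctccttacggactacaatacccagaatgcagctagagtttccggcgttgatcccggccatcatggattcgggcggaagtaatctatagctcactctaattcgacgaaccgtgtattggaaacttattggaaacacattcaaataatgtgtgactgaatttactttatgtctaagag
In Lig1 the word begins at base 277 of the window, in Orc1 at base 224 and in Cdc6 at base 113. Lig1 had 3 windows, and the one shown was chosen by its count of E2F words. It begins at 13278576, downstream of the annotated start of the gene at 13277283. The Cdc6 window likewise begins at 98907901, downstream of its annotated start at 98907801, so its word lies inside the annotated gene. A member with several windows was counted as holding a word if any of them did. Mcm3 holds a pair of words, at bases 270 and 289, both just after the gene start. Members with a word and members without one had median log2 fold changes of 0.37 and 0.19 between metastatic and primary tumors. The medians were 0.70 and 0.44 within the AS tumors, but 0.009 and 0.016 within the CR tumors. Their ranges overlapped widely in each of these comparisons.

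Total counts ran from 20905806 to 91886163 per tumor, and the members took between 0.0714% of them in primary CR2 and 0.140% in primary CR1. Values below are normalized counts, that is, counts corrected for each tumor's TMM-adjusted depth and set to the mean depth of the 8 tumors. The keratin gene Krt8 lay between 2159 and 42146 normalized counts, while the epithelial markers Epcam, Cdh1 and Krt18 lay between 0 and 36.0 in every tumor. Leukocyte markers summed to between 12342 and 28213 normalized counts per tumor. Markers of fibroblasts and smooth muscle summed to between 5180 and 6928 in the primary and between 3516 and 5875 in the metastatic tumors. Of these 9 genes 8 had negative log2 fold changes between them, with a median of -0.56. By edgeR 1 was lower at an unadjusted p under 0.05, against 1.12% of all genes. Endothelial markers summed to between 2481 and 3771 in the primary and between 3192 and 5208 in the metastatic tumors. Of these 5 genes 4 were positive, with a median log2 fold change of 0.46. In the same test 1 was higher at an unadjusted p under 0.05, against 1.56% of all genes. Of all genes tested 46.2% were positive. Lung epithelial markers summed to at most 27.3 and hepatocyte markers to at most 1545. That highest hepatocyte sum, in primary AS1, held 1491 of Ttr, while Alb stayed at or below 189 in every tumor. The part of these cells in the results was not tested, and in bulk tumors fewer cells of a type and less RNA per cell cannot be told apart.

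Per kilobase of exon, the mean level over the 8 tumors was highest for Dut (1993 normalized counts per kb), the enzyme that keeps dUTP out of DNA, and for Rpa1 (1458), the large subunit of the single-strand binding protein RPA. Pold2 (1149) and Gins4 (1148) followed. The lowest were Mcm10 (31.4), Pola2 (30.6) and Cdc6 (26.3), and the raw count of Cdc6 was as low as 5 in primary CR2. Mcm5 and Cdc6 varied most over the 8 tumors, with ratios of the highest to the lowest tumor of 16.4 and 15.7. Orc3 varied least, with a ratio of 1.27.

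The comparison of metastatic with primary tumors asked whether the replication machinery accompanied spread. Most members had higher levels in the metastases, but none passed the test. Of the 49, 41 (83.7%) had a positive log2 fold change against 46.2% of all 17104 genes tested, with a median of 0.29 against -0.03. None of the members had an adjusted p under 0.05 by edgeR, where the background was 0 of all genes. At an unadjusted p under 0.05, 2 members were higher, Mcm10 and Rrm2, against a background of 1.56% of genes, and no member was lower against 1.12%. The count was 0 to 3 when any 1 tumor but primary CR1 was left out (0 without primary AS1, AS2 or CR2 or metastatic AS1 or CR2, and 1 without metastatic AS2), and 24 without primary CR1. DESeq2, which gave no p for Mcm5, likewise called no member at the adjusted threshold, with 3 higher at the unadjusted one against 2.23% of genes.

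The 6 subunits of the MCM2-7 helicase, the motor that unwinds the origin, showed the pattern that recurred through the set. Mcm2 was at 747, 566, 1987 and 788 normalized counts in primary AS1, AS2, CR1 and CR2 and at 912, 1232, 1194 and 1329 in metastatic AS1, AS2, CR1 and CR2. In the same order Mcm3 was at 562, 487, 1470 and 476 in the primary and at 1125, 1037, 1084 and 1349 in the metastatic tumors. Mcm4 was at 1107, 946, 1775 and 1023 and at 1550, 1539, 1239 and 1458. In each of these genes primary CR1 was the highest of all 8 tumors, and the other 3 primary tumors lay below all 4 metastases.
The same arrangement held for the other subunits. Mcm5 was at 315, 326, 2356 and 144 in the primary and at 946, 841, 817 and 934 in the metastatic tumors. Mcm6 was at 887, 760, 3477 and 1017 and at 2236, 2215, 2261 and 2695. Mcm7 was at 1476, 1204, 3274 and 1534 and at 2078, 1969, 2353 and 2352. The span of Mcm7 holds a cluster of microRNAs, and its exons overlap Cops6 and Ap4m1 on the opposite strand. The 4 metastases were close together, between 817 and 946 for Mcm5, while the primary tumors spanned 144 to 2356. The log2 fold changes over all 8 tumors were 0.19 (SE 0.37) for Mcm2, 0.61 (0.37) for Mcm3, 0.25 (0.22) for Mcm4, 0.16 (0.74) for Mcm5, 0.61 (0.45) for Mcm6 and 0.22 (0.30) for Mcm7. Each was within 2 standard errors of 0 and had an adjusted p of 0.997.

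**Figure D1:**
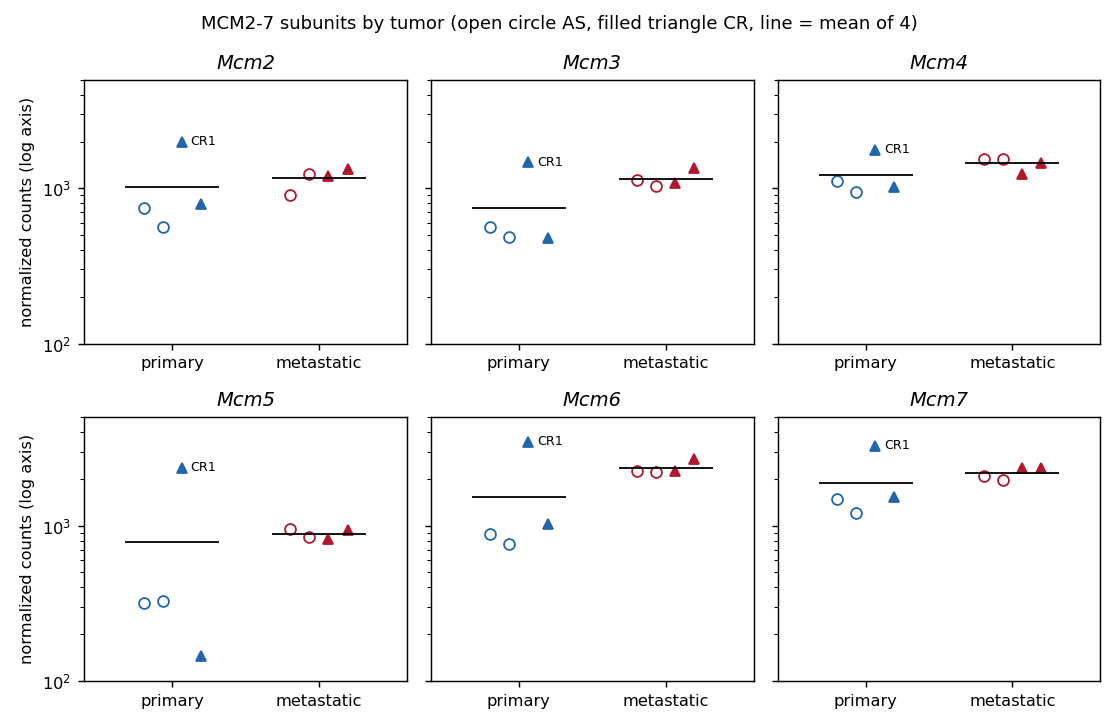
Normalized counts (log axis) of the 6 MCM2-7 subunits in each tumor, with primary tumors on the left and metastatic tumors on the right of each panel, open circles for AS, filled triangles for CR and a line at the mean of 4 tumors. In every panel primary CR1 lies above the other 7 tumors, and the remaining 3 primary tumors lie below the metastases.

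Mcm10, which helps to activate the loaded helicase, was at 109, 87.1, 311 and 88.2 in the primary and at 354, 313, 225 and 442 in the metastatic tumors. Its log2 fold change was 1.15 (SE 0.45, adjusted p = 0.997). Rrm2, the regulated subunit of ribonucleotide reductase, was at 744, 549, 1702 and 1017 and at 1582, 1864, 1384 and 2243, with a log2 fold change of 0.82 (SE 0.34, adjusted p = 0.997). In both genes primary CR1 overlapped the metastases and the other primary tumors did not.

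The other nucleotide enzymes and the ligase of the lagging strand had values in the same direction. Lig1, which seals Okazaki fragments, was at 310, 224, 666 and 394 in the primary and at 608, 555, 605 and 991 in the metastatic tumors (log2 fold change 0.79, SE 0.35). Rrm1, the large subunit of ribonucleotide reductase, had a log2 fold change of 0.65 and Tyms, which makes thymidylate, of 0.52. Tk1, the salvage thymidine kinase, had 0.38 and Dut had 0.03. All 5 nucleotide genes and all 4 of DNA polymerase alpha and primase, which start each new strand, had positive values, with medians of 0.52 and 0.44. The licensing factors Cdc6 (0.85, SE 0.59) and Cdt1 (0.33, SE 0.41) and their inhibitor Gmnn (0.34, SE 0.24) were positive with wide errors. Chaf1a and Chaf1b, the chromatin assembly factor subunits that place histones behind the fork, had 0.46 and 0.31.

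ORC had the median nearest to 0 among the roles, 0.01. Orc2 was at 2101, 2511, 3036 and 2663 in the primary and at 2705, 2399, 2746 and 2583 in the metastatic tumors. Orc3 was at 1860, 1622, 1775 and 2061 and at 1765, 1724, 1931 and 1952, and Orc4 at 3013, 2850, 3892 and 4010 and at 3307, 3081, 3414 and 3946. These 3 subunits had the smallest differences of all members, 0.02 (SE 0.16), 0.01 (SE 0.15) and 0.00 (SE 0.18), and their signs turned with the scaling or the tumors used. Orc5 had a log2 fold change of -0.13 (SE 0.20). Orc1, the subunit whose level follows the cell cycle, had 0.59 (SE 0.37) and Orc6 had 0.19 (SE 0.29).

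RPA had the lowest share of positive values among the roles, 1 of 3. Rpa1 was at 9104, 9341, 10001 and 9207 in the primary and at 8012, 8870, 5855 and 4672 in the metastatic tumors. All 4 metastases were below all 4 primary tumors, an arrangement that 0.848% of the tested genes showed in this direction, and no other member had groups that did not overlap in either direction (0.854% of genes in the other). The log2 fold change was -0.46 (SE 0.22, adjusted p = 0.997). The small subunits Rpa2 and Rpa3 had 0.10 and -0.08. The clamp Pcna had 0.41 (SE 0.29), and its loader subunits Rfc1 to Rfc5 ran from -0.03 for Rfc5 to 0.29 for Rfc3. Subunits of polymerase epsilon, which copies the leading strand, had 0.54 (Pole) and 0.53 (Pole2), those of polymerase delta had -0.13 (Pold1), 0.17 (Pold2) and 0.09 (Pold3), and the flap endonuclease Fen1 had -0.09. Among the helicase activators Gins1 had 0.57, Gins3 0.30, Gins4 0.25, Cdc45 0.13 and Gins2 -0.22, and Mcm8, a helicase of repair, had 0.46.

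**Figure D2:**
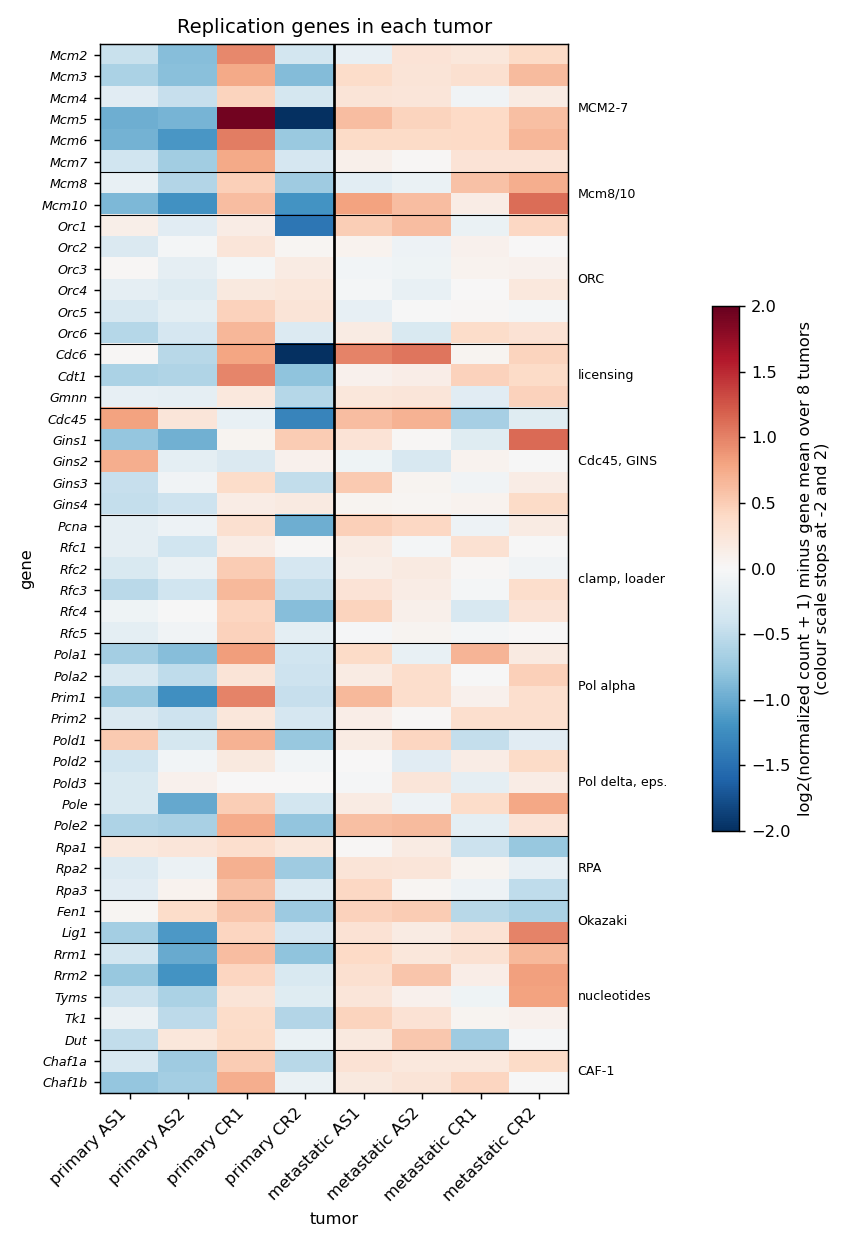
log2(normalized count + 1) of each member in each tumor minus the mean of that gene over the 8 tumors, with genes grouped by role in rows, tumors in columns and a line between primary and metastatic tumors (red above, blue below the mean). Primary CR1 is red through most roles while the other 3 primary tumors are mostly blue, and Orc2 to Orc4 are pale in all tumors.

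Primary CR1 stood apart from the other primary tumors across the set. It was the highest of the 8 tumors in 23 of the 49 members, against 17.5% of all tested genes, and the highest of the 4 primary tumors in 42 members, against 29.6% of genes. Its mean log2 level over the members was 9.90, while the other primary tumors lay between 8.93 and 9.10 and the metastases between 9.46 and 9.69. The ratio of primary CR1 to the mean of the other primary tumors was 9.01 for Mcm5, 3.92 for Mcm6, 3.41 for Prim1, 3.29 for Mcm10 and 3.15 for Cdt1. It was 1.09 for Rpa1, 1.04 for Pold3, 0.961 for Orc3, 0.812 for Cdc45 and 0.687 for Gins2, so the last 3 did not share the high level. The lowest of the 8 tumors was primary AS2 in 19 members, against 8.58% of genes, and primary CR2 in 17, against 14.9%. The SD of the log2 level was larger among primary than among metastatic tumors in 44 of 49 members, against 52.4% of genes, with medians of 0.55 and 0.23. Without primary CR1 the median SD among primary tumors was 0.23.

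Leaving out primary CR1 (done because of these levels, and so no independent test) moved the fold changes of metastatic against primary tumors. The median over the members was then 0.61, 46 of 49 were positive, and 24 had an unadjusted p under 0.05 in the higher direction, against 3.48% of genes, with none in the lower direction against 1.95%. None had an adjusted p under 0.05 by edgeR, where the smallest was 0.238. All 6 MCM2-7 subunits were among the 24, with log2 fold changes from 0.49 (SE 0.16) for Mcm4 to 1.74 (SE 0.31) for Mcm5. All 4 polymerase alpha and primase genes, 4 of 5 nucleotide genes, both Chaf1 subunits and 2 of 3 licensing genes were among them too, but 1 of 6 ORC genes and none of the Cdc45 and GINS or RPA groups. In 27 members all 4 metastases lay above these 3 primary tumors, against 4.36% of genes, and in 1 they lay below, against 2.7%. DESeq2, also run without primary CR1 after the data were seen, called 10 members higher at an adjusted p under 0.05 and none lower, against 0.972% and 0.0575% of genes. These were Mcm3 (1.18), Mcm5 (1.75), Mcm6 (1.42), Mcm10 (1.81), Cdt1 (0.95), Prim1 (1.17), Lig1 (1.17), Rrm1 (1.11), Rrm2 (1.21) and Chaf1a (0.81), each with its log2 fold change.

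**Figure D3:**
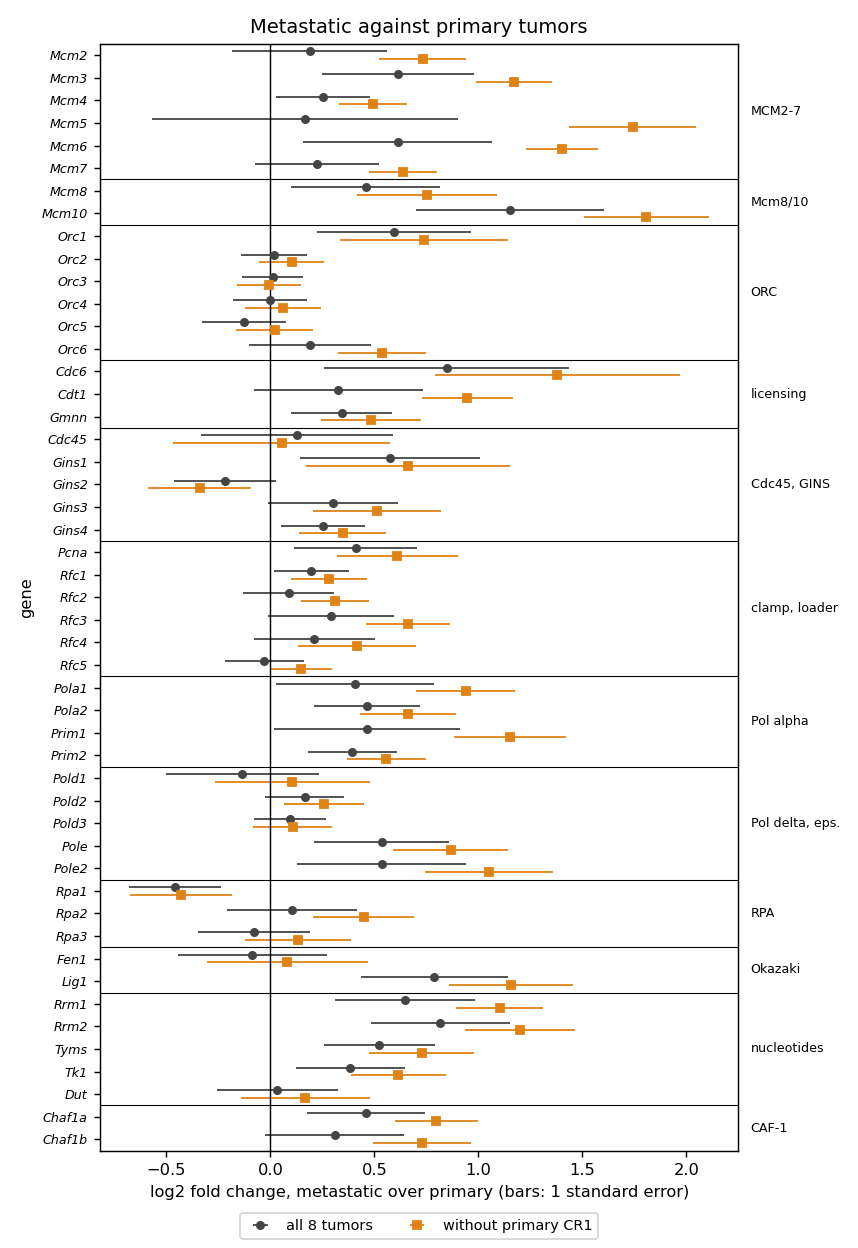
log2 fold change of metastatic over primary tumors for each member, with bars of 1 standard error, from all 8 tumors (grey circles) and from 7 tumors without primary CR1 (orange squares). Without that tumor Mcm5 moves from 0.16 to 1.74 and Mcm10 from 1.15 to 1.81, while Orc2, Orc3 and Orc4 stay near 0.

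Metastases were also compared with primary tumors within each phenotype, 2 against 2, with the spread estimated from all 8 tumors. Within the AS tumors 46 of 49 members had positive values against 48.5% of all genes, with a median of 0.57 against -0.01. No member passed the adjusted threshold, and 8 were higher at an unadjusted p under 0.05 against 1.55% of genes, with none lower against 0.895%. The 8 became 4 without primary AS1, 1 without primary AS2, 3 without metastatic AS1, 5 without metastatic AS2 and 24 without primary CR1, without primary CR2 or in a fit of the AS tumors alone. The 8 were Rrm2 (1.41, SE 0.35), Prim1 (1.47, SE 0.47), Lig1 (1.12, SE 0.37), Mcm10 (1.76, SE 0.58), Mcm6 (1.43, SE 0.49), Chaf1b (0.95, SE 0.34), Pole2 (1.25, SE 0.50) and Gins4 (0.48, SE 0.20). Both AS metastases lay above both AS primary tumors in 38 members, against 18.8% of genes, and below them in 1 member, Rpa1, against 18.4%.

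Within the CR tumors the members showed no common direction, and the primary pair was split. The median was 0.03 against -0.03 over all genes, with 27 of 49 positive against 47.7% of genes. No member was higher at an unadjusted p under 0.05, against 2.37% of genes. Rpa1 was the 1 member lower, with a log2 fold change of -0.89 (SE 0.23, adjusted p = 0.625), against 5.37% of genes. In 27 members both CR metastases lay between primary CR2 and primary CR1, against 21.8% of genes. Both CR metastases lay above both CR primary tumors in 2 members, against 13.9% of genes, and below both in 2, against 16.6%. Primary CR1 was above both CR metastases in 30 members, against 40.2% of genes, and primary CR2 below both in 37, against 31.2%.

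Prim1, Chaf1b and Pole2 are examples of members in which the CR metastases lay between the CR primary tumors. They were among the members with the smallest p in the interaction test below, where no member passed the adjusted threshold. In Prim1, Chaf1b and Pole2 primary CR1 lay above and primary CR2 below both CR metastases. Rpa1 and Rrm2, also among the members with the smallest p in that test, did not have this arrangement. Prim1, the catalytic subunit that lays down the RNA primer, was at 200 and 143 in the AS primary and 527 and 427 in the AS metastatic tumors. In the CR tumors it was at 666 and 244 in the primary and 354 and 425 in the metastatic tumors, so the CR groups overlapped. Chaf1b was at 309 and 331 against 606 and 631 in the AS tumors, and at 876 and 482 against 713 and 524 in the CR tumors. Pole2, a subunit of polymerase epsilon, was at 83.3 and 81.2 against 195 and 199 in the AS tumors and at 215 and 73.5 against 111 and 154 in the CR tumors.

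The interaction of tumor type and phenotype tested whether these differences were unequal. The metastatic over primary difference was larger in AS than in CR tumors in 45 of 49 members. The interaction was positive in 8.16% of the members against 46.5% of all genes, and its median was -0.59 against -0.05. No member passed the adjusted threshold. At an unadjusted p under 0.05, 3 members were lower against 1.54% of genes, namely Prim1 (-1.75, SE 0.66), Chaf1b (-1.12, SE 0.48) and Rpa1 (-0.76, SE 0.32), each with an adjusted p of 0.964, and none was higher against 1.2%. Without primary CR1 the median interaction was -0.06 with 20 of 49 positive, and the median within the CR tumors was 0.62 with 40 positive. Without primary CR2 they were -0.94 with 2 positive and -0.34 with 12 positive, so both values rest on which CR primary tumor is present.

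**Figure D4:**
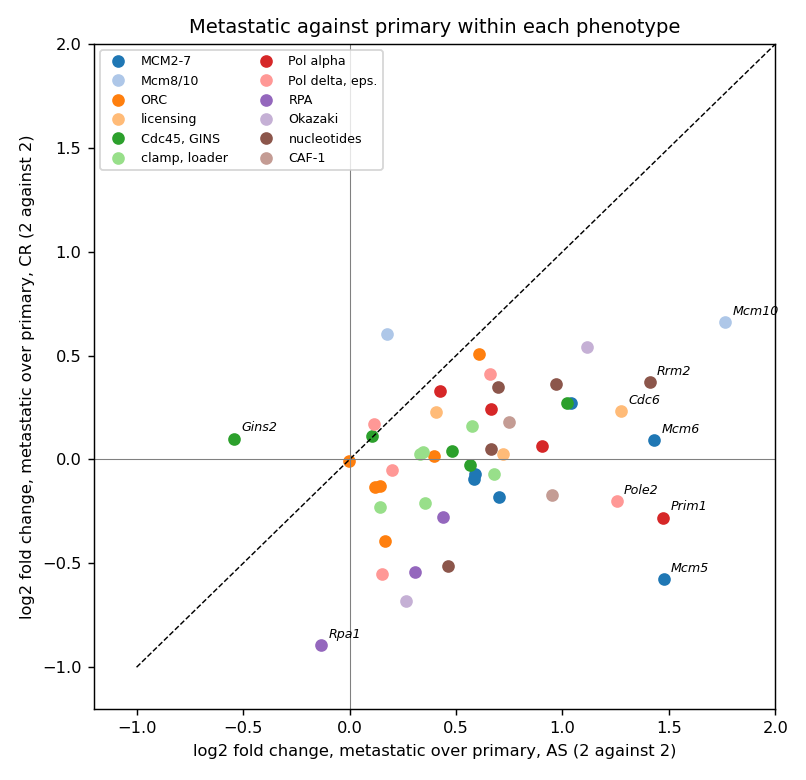
log2 fold change of metastatic over primary tumors within AS tumors (x axis) and within CR tumors (y axis) for each of the 49 members, coloured by role, with a dashed line where both are equal. Of the 49 points 45 lie below the line, and Mcm5, Prim1 and Pole2 lie right of 1 on the x axis and below 0 on the y axis.

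Castrate resistant tumors were compared with androgen sensitive tumors with tumor type as a covariate. Of all 18889 genes tested 10.1% had an adjusted p under 0.05, with 4.76% higher and 5.29% lower in CR, and of the 49 members 0 were higher and 1 was lower. That member was Cdc45, which joins the MCM ring to form the active helicase. It was at 453, 307, 399 and 421 normalized counts in primary AS1, primary AS2, metastatic AS1 and metastatic AS2, and at 234, 103, 163 and 219 in primary CR1, primary CR2, metastatic CR1 and metastatic CR2. The groups did not overlap, and the log2 fold change was -1.15 (SE 0.29, adjusted p = 0.0373). The call was lost without library-size factors (adjusted p = 0.0806) and when any 1 tumor but primary CR1 was left out (adjusted p from 0.068 to 0.113), with the log2 fold change between -1.47 and -0.96 throughout.

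The genes beside Cdc45 on chromosome 16 were listed because of this result and after its values were seen. Within 500 kb on either side 16 other genes were tested. Of these 7 were lower in CR at an adjusted p under 0.05, against 5.29% of all genes. None was higher, against 4.76%, and the median log2 fold change was -0.90. Ufd1, whose exons overlap those of Cdc45 on the opposite strand, was at 3806, 3019, 2585 and 2483 in the AS tumors and at 1257, 1082, 1084 and 1041 in the CR tumors (log2 fold change -1.42, SE 0.15, adjusted p = 0.00248). The strand setting of the counting was not given in the sources used here, so reads of Cdc45 and Ufd1 in the shared stretch may not be told apart. Txnrd2, the mitochondrial thioredoxin reductase, which does not overlap Cdc45, had the lowest value among the 7 (-2.08, SE 0.21). The other 5 were Tango2, Arvcf, Rtl10, 2510002D24Rik and Mrpl40.

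**Figure D5:**
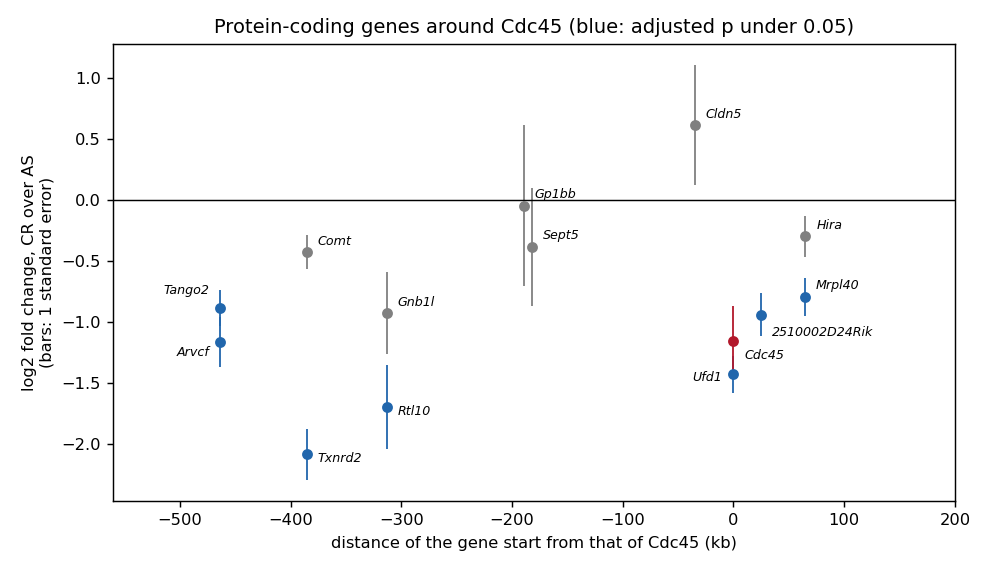
log2 fold change of CR over AS tumors, with bars of 1 standard error, for Cdc45 (red) and the protein-coding genes tested within 500 kb, by distance of the gene start from that of Cdc45 in kb (blue, adjusted p under 0.05, grey, not under it). Ufd1 and Cdc45 start next to each other at -1.42 and -1.15, and Cldn5 is the gene above 0.

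Among the other members 4 were higher in CR at an unadjusted p under 0.05, against 13% of genes, and Cdc45 was the 1 lower, against 14.1%, so both shares of the set were below the background. With other scalings the members higher were 10 (RLE factors, against 14.3% of genes), 11 (upper-quartile factors, 15.1%) and 13 (DESeq2, 16%), shares above the background, so this reading depends on the scaling. Lig1 had a log2 fold change of 0.70 (SE 0.26), Pole, the catalytic subunit of polymerase epsilon, 0.62 (SE 0.25), Orc6 0.54 (SE 0.24) and Gins4 0.37 (SE 0.15). Gins4 was at 1097, 1148, 1581 and 1566 in the AS tumors and at 1688, 1723, 1594 and 1994 in the CR tumors, in the order used for Cdc45, and these did not overlap. Gins4 and Orc4 were the 2 members with all CR above all AS tumors, against 8.64% of genes, and Cdc45 the 1 with all below, against 9.04%. Pole was at 645, 393, 901 and 745 and at 1126, 620, 1034 and 1363. Orc6 was at 734, 866, 1226 and 883 and at 1746, 911, 1417 and 1344. Both of these overlapped between the phenotypes.

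The set as a whole had a median of 0.27 against -0.0004 over all genes, with 34 of 49 positive against 50% of genes. All 6 MCM2-7 subunits were positive, from 0.10 for Mcm4 to 0.96 for Mcm5. This direction rested on primary CR1. Without it the median was -0.06 with 21 positive, 3 members were lower at an adjusted p under 0.05 and none higher, against 11.6% and 6.43% of genes. The 3 were Fen1 (-1.10, SE 0.17), Cdc45 (-1.47, SE 0.26) and Cdc6 (-1.36, SE 0.39). Fen1, the nuclease that trims Okazaki fragments, was at 660, 826, 882 and 909 in the AS tumors and at 938, 385, 437 and 415 in the CR tumors, where primary CR1 alone lay above all AS tumors. The smallest differences between the phenotypes were in Gins3 (-0.02, SE 0.31), Rpa2 (0.02, SE 0.32) and Tk1 (-0.03, SE 0.26). Gins3 was at 63.4, 82.9, 126 and 91.3 and at 114, 61.7, 83.3 and 96.9. Rpa2 was at 283, 317, 410 and 406 and at 564, 209, 356 and 305, and Tk1 at 353, 266, 519 and 465 and at 494, 253, 396 and 405. In each of these 3 genes the phenotypes overlapped, and their signs turned with the scaling or the tumors used.

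A list of 40 other replication genes, which holds the kinase, the checkpoint and the chromatin factors of the fork, was read beside the members. Between metastatic and primary tumors none passed the adjusted threshold, 3 were higher at an unadjusted p under 0.05 (1.56% of all genes) and none lower (1.12%), and the median was 0.28 with 29 of 40 positive (46.2% of all genes). Dnmt1, the maintenance DNA methyltransferase, had a log2 fold change of 0.64 (SE 0.23), Ticrr, which brings Cdc45 to the ring, 1.01 (SE 0.37), and Dbf4, the activating subunit of the Cdc7 kinase, 0.82 (SE 0.34). Ticrr was at 85.2, 38.1, 84.8 and 61.7 in the primary and at 99.9, 115, 123 and 211 in the metastatic tumors, which did not overlap. Clspn, a checkpoint adaptor, had 0.93, Uhrf1, the partner of Dnmt1, 0.93 and Wdhd1, which ties polymerase alpha to the helicase, 0.57. Between phenotypes 1 of the 40, the polymerase epsilon subunit Pole3, was higher in CR at an adjusted p under 0.05 (0.66, SE 0.17, adjusted p = 0.0436). None was lower, against 4.76% higher and 5.29% lower of all genes, so at that threshold the list held no more calls than the background. At an unadjusted p under 0.05, 7 of the 40 were higher against 13% of genes and 1 was lower against 14.1%. Of the 40, 29 were positive, against 50% of all genes.

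The proliferation genes Mki67 and Top2a were read for the same tumors. Mki67, which marks dividing cells, was at 2538, 1498, 3887 and 2040 in the primary and at 6277, 4717, 4792 and 8506 in the metastatic tumors, and the groups did not overlap (log2 fold change 1.29, SE 0.32, adjusted p = 0.997). Top2a, which untangles replicated DNA, was at 2704, 1811, 8184 and 1520 and at 8091, 5844, 4861 and 8340 (0.93, SE 0.51). Primary CR1 was thus among the metastases for Top2a and below them for Mki67, while it was above all of them for the 6 MCM2-7 subunits.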

How the data were processed

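RNA-seq of 8 tumors was analysed. The authors extracted total RNA with TRIzol, depleted ribosomal RNA, prepared stranded libraries, sequenced paired-end reads of 101 bases, mapped them to mm10 with Bowtie, kept reads at a unique location with at most 2 mismatches and deposited raw counts per gene. The submitters' processing notes name CASAVA 1.8.2 and TopHat2 2.0; the counting tool, its strand setting and the annotation release were not given in the sources used here. The study's text describes its comparison with fewer primary tumors than the labels hold and does not name the one left out, so all 4 were used here.

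Counts were tested in R 4.3.3 with edgeR 4.0.16 (filterByExpr, TMM factors, quasi-likelihood, Benjamini-Hochberg over all genes tested, threshold 0.05). Tumor type was the only term for metastatic against primary tumors, phenotype was tested with tumor type as a covariate, and the interaction and the within-phenotype differences came from a model of the 4 groups. DESeq2 1.42.0, other scalings, no filter, covariates and each tumor left out were alternatives, and the scripts were tested on simulated data. Effective library sizes for normalized counts used TMM factors of the 17104 genes tested by tumor type. Of the 38115 identifiers 36343 were found in GENCODE M21 (GRCm38), which gave coordinates, exon lengths and overlaps: the exons of 16 members overlap those of another counted gene, so their counts are less certain. Total counts of 20905806 to 91886163 per tumor leave counting error small for all but the lowest members. Figures were drawn with matplotlib 3.10.9.

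The members and lists were chosen with earlier results of these data known. Values in each tumor are given for Mcm2 to Mcm7, for members with an unadjusted p under 0.05 in a comparison and for the 3 members with the smallest difference, with further genes named for their role; Fen1 and the genes beside Cdc45 were added after their values were seen. Tumors are numbered in accession order within a group. Some marker genes are not reported here.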

Additional observations from a re-analysis of the deposited data

Results flagged for a closer look

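The normalized counts of 23 members and the mean log2 level of the set were examined in 96 groups of 4 tumors. Of these groups 10 held a tumor whose gap to the nearest of the others exceeded Dixon's 95% critical share of the range. Chance gives about 1 in 20 groups for unselected, normally distributed values. Apart from Mcm2 to Mcm7 the members were picked by their p or fold change in these data, so that rate is no yardstick here. Since the genes share tumors, the groups are not independent. In 7 of these the tumor was primary CR1 among the primary tumors, at 1987 normalized counts for Mcm2 (others up to 788), 1470 for Mcm3 (562), 2356 for Mcm5 (326), 3477 for Mcm6 (1017), 3274 for Mcm7 (1534), 311 for Mcm10 (109) and 215 for Pole2 (83.3). In 3 the tumor was metastatic CR2 among the metastases, at 1994 for Gins4 (others up to 1594), 991 for Lig1 (608) and 2695 for Mcm6 (2261).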

How the results depend on the processing

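Between metastatic and primary tumors no member passed the adjusted threshold with any other scaling, filter, covariate or single tumor left out (0 in each), and DESeq2 with primary CR1 left out, added after the data were seen, called 10. The median over the members lay between 0.19 and 0.61 with 1 tumor left out (the highest without primary CR1). The metastases are labelled as matched without their partners, so each of 4 ways to pair a metastasis with a primary tumor of its phenotype was fitted as a replicate block. These called no member and gave medians of 0.36, 0.37, 0.36 and 0.36, with 8, 6, 8 and 8 members higher at an unadjusted p under 0.05 (3.22%, 2.69%, 2.77% and 2.51% of genes). Orc4 turned positive with DESeq2 (0.0165), RLE factors (0.0164), upper-quartile factors (0.0584), library totals (0.0794), phenotype as a covariate (0.0110), the 4 blocks (0.00897, 0.00890, 0.00923 and 0.00916) and DESeq2 without primary CR1 (0.0716). Orc3 and Orc2 turned negative with no low-count filter (-0.0404 and -0.0337), which moved the median of all genes to 0.11. With 1 tumor left out Orc4 ran from -0.0749 to 0.10, Orc3 from -0.0205 to 0.0948, Orc2 from -0.0762 to 0.10 and Mcm5 from -0.15 to 1.74. Between phenotypes the members called were 1 as reported (against 10.1% of all genes), 2 with DESeq2 (18.8%) and 0 with library totals (6.28%). They were 3 with no filter (9.72%) and 4 with DESeq2 without primary CR1 (24.1%). With 1 tumor left out they were 0 to 3 (1.9% to 18%). All genes called were 1899 as reported, 3545 with DESeq2 and 399 to 3784 with 1 tumor left out. Gins3 turned positive with DESeq2 (0.0273), RLE (0.0172) and upper-quartile factors (0.0374), and Tk1 likewise (0.00766, 0.00469 and 0.0265), while Rpa2 turned negative with library totals (-0.0368), no filter (-0.0385) and DESeq2 without primary CR1 (-0.37). With 1 tumor left out Gins3 ran from -0.34 to 0.12, Tk1 from -0.37 to 0.0882 and Rpa2 from -0.46 to 0.19. In the interaction 1 member was called with no filter, against 0.681% of genes. With 1 tumor left out, so that 1 group held a lone tumor, the median interaction ran from -0.94 (without primary CR2) to -0.06 (without primary CR1). Within the AS tumors 4 were called with no filter (0.562% of genes) and 6 by DESeq2 without primary CR1 (0.638%). Within the CR tumors 7 were called by that setting (1.53% of genes), and 0 to 1 with 1 tumor left out (1 without primary CR2), where a lone primary tumor is assumed to vary like the others. The causes of these shifts were not tested. Cdc6, Gins3, Mcm10, Orc1 and Pole2 had raw counts of 30 or fewer in at least 1 tumor, which limits their precision.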
